A study of Mus musculus with 8 samples.

Results

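Collagens are the main structural proteins of connective tissue, and fibroblasts are a principal source of them. The 42 collagen chain genes measured here are all those whose probe set is assigned to a single gene with a symbol of the form Col, a number, a, a number (82 probe sets), out of 18193 genes on the array. Each gene is represented by its brightest probe set, judged by the mean of the 8 arrays. This choice of probe set used no difference between the genotypes. The collagen genes as a subject were chosen with earlier results of these data known. Mouse embryonic fibroblasts (MEFs) without Cebpg (Cebpg-/-, 4 samples) were compared with wild-type MEFs (WT, 4 samples). Both groups were on a C57BL/6 background, came from embryos at E13.5, grew in medium with 10% fetal bovine serum, were plated at equal density at passage 3 and were harvested 48 hours later. The labels call the samples biological replicates and do not say whether each came from its own embryo, so a p-value here is set by the spread among these samples, which may in part be technical. Each sample was hybridised to 1 Affymetrix array, and each value is an RMA expression value on the log2 scale, where a difference of 1 is a doubling of the signal. The number of arrays limits the precision. The values read RNA, and no collagen protein was measured.

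A collagen molecule is a rope of alpha chains wound around each other, and each chain is the product of its own gene. Fibrillar collagens (types I, II, III, V, XI, XXIV and XXVII) assemble into the cross-banded fibrils of skin, tendon, bone and cartilage. Type IV forms the sheet of basement membranes, fibril-associated collagens decorate the surface of fibrils, and type VI forms beaded filaments around cells. Chains are hydroxylated, folded by chaperones and packed into large transport vesicles in the endoplasmic reticulum, and then trimmed and crosslinked outside the cell. Cebpg encodes C/EBPγ, a transcription factor of the basic leucine zipper family.

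The collagen genes that passed the test were all lower in Cebpg-/- cells, and 9 of these 13 encode chains of fibrils or of type VI filaments. Of the 42 genes 13 fell and none rose (limma with Benjamini-Hochberg adjustment over all genes, threshold 0.05), where 3.99% of all genes fell and 8.62% rose. By an unadjusted p under 0.05, 21 were lower and 2 higher. The median change was -0.22 over the 42 genes, against -0.00092 over all genes, and 32 of the 42 changes were below 0. In 15 of the 42 genes all 4 Cebpg-/- values lay below all 4 WT values, a pattern that 6.74% of all genes showed, and in none did they lie above, where 12.8% of all genes did. In either direction 12.6% of all genes were called, 726 lower and 1569 higher. Leaving out 1 array gave 1202 to 2509 called genes, 395 to 969 of them lower, with 462 or fewer lower without WT replicate 1 or 3 or Cebpg-/- replicate 1 or 3, and 10 to 14 lower collagen genes. With the mean of leukocyte markers as a covariate 2 collagen genes passed as lower, and 129 of all 18193 genes did. Without replicate 1 of both genotypes (an alternative chosen after seeing the data) 6 collagen genes and 182 of all genes passed as lower. With array medians subtracted 584 of 2772 called genes were lower, and 12 collagen genes fell and none rose. With quantile normalization 864 of 1995 called genes were lower, and 13 collagen genes fell and none rose.

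**Figure D1:**
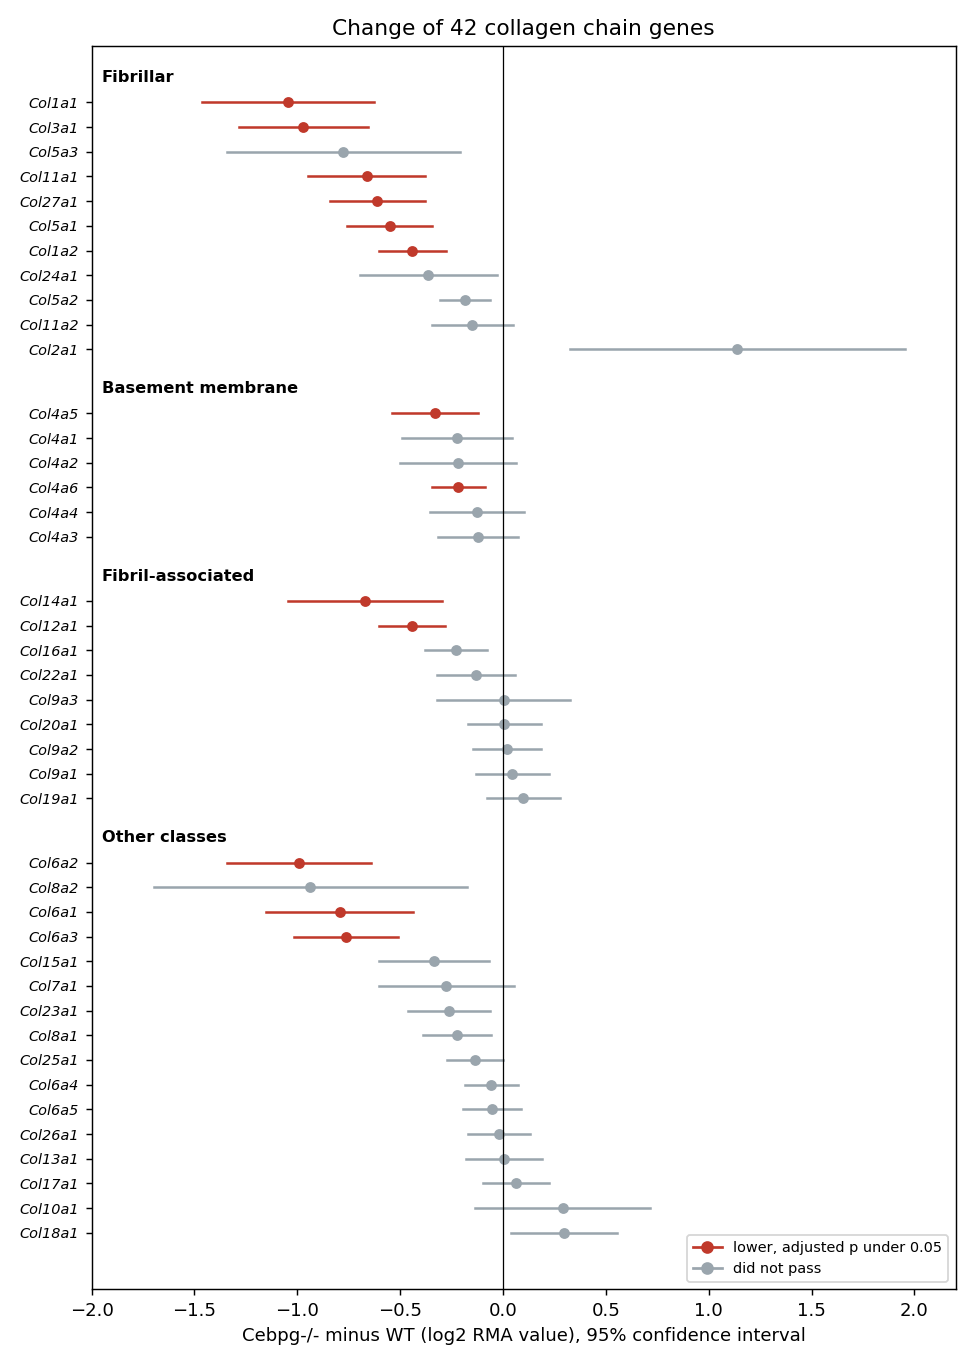
Change of each of the 42 collagen chain genes between Cebpg-/- and WT fibroblasts on the log2 scale (x axis), with its 95% confidence interval, grouped by class (y axis). Red marks the 13 genes that passed the threshold, all of them left of 0, and grey those that did not pass. Col2a1 is the gene farthest to the right, at 1.14.

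The arrays were examined before the genes. Of 3 probe sets of Cebpg, 1 was lower in Cebpg-/- cells (-0.78, limma adjusted p = 0.000593 over all probe sets) and the others, at -0.17 and 0.26, did not pass. Their position relative to the deletion is not known from the sources used here. Fibroblast markers were well measured: 10 of 10 lay above 2.73, the median of all values, with an array mean of 9.09 to 9.51 in Cebpg-/- and 9.42 to 9.66 in WT, and 3 of them (Pdgfrb, Fap and Postn) fell. The cultures also held leukocyte RNA. Of 18 leukocyte markers 17 lay above 2.73, among them Csf1r and Adgre1, and 1 (Cd14) was called, as higher. All 18 changes were above 0, from 0.87 (Cx3cr1) to 1.99 (Lyz2). The unadjusted limma p was under 0.05 in all but Ptprc, Csf1r, C1qa and Cx3cr1. The mean of the 18, 6.41 ± 1.13 in Cebpg-/- and 4.95 ± 0.90 in WT (SD, n = 4 each), was 7.55, 4.88, 6.82 and 6.38 on Cebpg-/- replicates 1 to 4, against 3.61, 5.37, 5.30 and 5.53 on WT replicates 1 to 4. In such bulk samples fewer cells of a type and less RNA per cell cannot be told apart. Of 8 endothelial markers 1 lay above the median, and none was called. Of 4 adipocyte markers 1 (Lpl) was higher, and their mean was 4.63 to 5.98 in Cebpg-/- and 3.72 to 4.84 in WT. Of 6 epithelial markers 1 (Krt19) was higher and 1 (Epcam) lower, and of 4 measured neural markers 1 (Tubb3) was lower. The other epithelial and neural markers were not called. A fit with the leukocyte marker mean as a covariate is given below. Beyond that fit, the part of these cell types in the collagen values was not tested.

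Fibrillar collagens held the most calls. Of 11 genes 6 fell and none rose, and the median change was -0.55 (by an unadjusted p under 0.05, 9 were lower and 1 higher). Col1a1 and Col1a2 encode the chains of type I collagen, the main fibril of skin and bone. Col1a1 read 9.34, 9.71, 9.19 and 9.64 on Cebpg-/- replicates 1 to 4, against 10.31, 10.08, 10.70 and 10.98 on WT replicates 1 to 4. Its highest Cebpg-/- value was below its lowest WT value, and the fall was 2.07-fold (-1.05, 95% confidence interval -1.47 to -0.63, limma adjusted p = 0.00738). Col1a2 read 12.17, 12.37, 12.11 and 12.34 in Cebpg-/- and 12.68, 12.61, 12.75 and 12.72 in WT. The groups did not overlap here either, and the fall was 1.36-fold (-0.44, interval -0.60 to -0.28, adjusted p = 0.00506). This probe set lies near the top of the scale, and the other Col1a2 probe sets gave -0.82 and -1.45.

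Col3a1 alone encodes type III collagen, a fine fibril of skin, vessels and hollow organs. By the brightest probe sets it fell almost as far as Col1a1, and by the dimmer ones Col3a1 gave -1.55 and Col1a1 -0.91. Col3a1 read 10.34, 11.16, 10.64 and 10.74 on Cebpg-/- replicates 1 to 4, against 11.65, 11.69, 11.75 and 11.67 on WT replicates 1 to 4. The WT values lay close together and the Cebpg-/- values spread more widely, all of them below WT. The fall was 1.96-fold (-0.97, interval -1.29 to -0.66, limma adjusted p = 0.00305). On Cebpg-/- replicate 1, with the highest leukocyte mean (7.55), Col3a1 was at its lowest, and on Cebpg-/- replicate 2, with the lowest (4.88), at its highest within the genotype. Within WT the array with the lowest leukocyte mean, replicate 1 (3.61), also had the lowest Col3a1 (11.65). A relation between the 2 values was not tested.

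Types V and XI are minor fibrillar collagens that sit inside the larger fibrils and set their diameter. Col5a1 read 10.23, 10.28, 10.03 and 10.32 in Cebpg-/- and 10.70, 10.58, 10.87 and 10.91 in WT, a fall of 1.47-fold (-0.55, interval -0.76 to -0.35, limma adjusted p = 0.00547). Col11a1 read 7.76, 7.31, 7.76 and 7.26 in Cebpg-/- and 8.17, 8.07, 8.12 and 8.38 in WT, a fall of 1.58-fold (-0.66, interval -0.95 to -0.38, adjusted p = 0.0102). Neither gene had overlapping groups, and Col11a1 was lowest on Cebpg-/- replicates 2 and 4, unlike Col3a1. Col5a2, the partner chain of Col5a1, read 11.84, 11.89, 11.77 and 11.87 in Cebpg-/- and 12.03, 11.99, 12.01 and 12.08 in WT. All 4 Cebpg-/- values lay below WT, but the difference was small and did not pass (-0.18, interval -0.31 to -0.06, adjusted p = 0.0536). Col5a3, a further type V chain, gave -0.78 and did not pass (interval -1.34 to -0.21, adjusted p = 0.0738). Its groups overlapped: Cebpg-/- replicates 2 and 4, at 6.58 and 6.91, reached above WT replicate 2, at 6.56.

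Col27a1, a fibrillar collagen of cartilage and other developing tissues, fell as well. It read 5.19, 5.49, 5.31 and 5.39 in Cebpg-/- and 6.07, 5.96, 5.68 and 6.12 in WT, without overlap (-0.61, interval -0.84 to -0.38, limma adjusted p = 0.00558). Col24a1 and Col11a2 lay below the median of all values on every array, at -0.36 and -0.15, and did not pass.

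**Figure D2:**
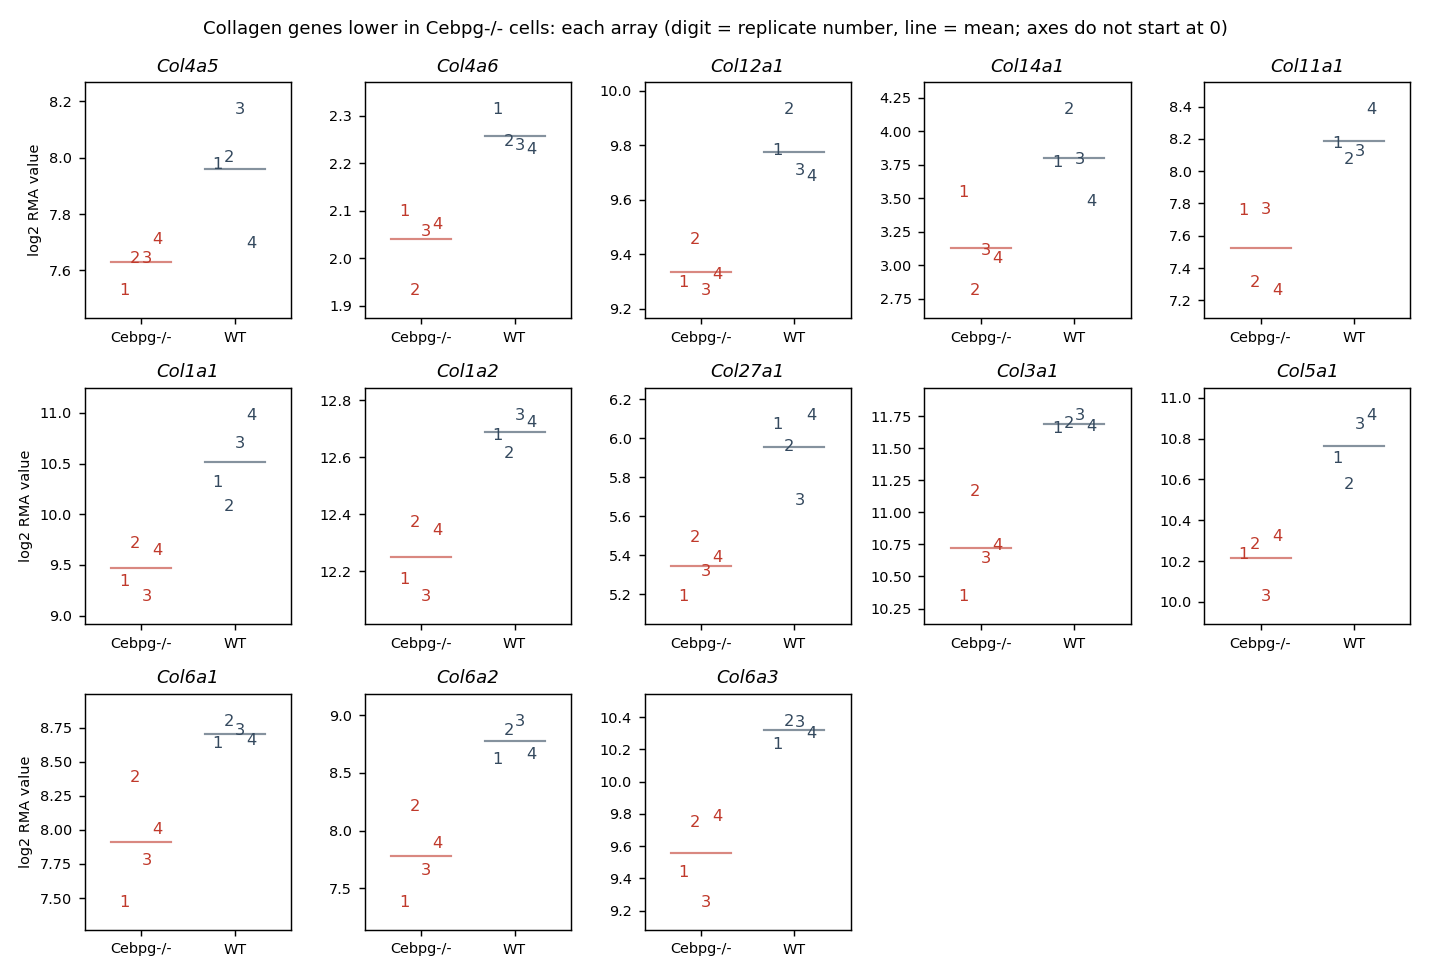
The 13 collagen genes called lower, with the value of each array on the log2 scale (y axis, not starting at 0) for Cebpg-/- (left, red) and WT (right, blue-grey). Digits are replicate numbers and lines are group means of 4 arrays. The groups are apart in 11 genes and overlap in Col4a5 and Col14a1.

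Type II and type IX collagens, which are typical of cartilage, passed in neither direction. Col2a1, the main fibril of cartilage, read 5.73, 5.31, 6.60 and 4.68 on Cebpg-/- replicates 1 to 4, against 4.53, 4.03, 4.13 and 5.08 on WT replicates 1 to 4. It was higher on 3 of 4 Cebpg-/- arrays than on any WT array, while Cebpg-/- replicate 4 lay below WT replicate 4, and the difference did not pass (1.14, interval 0.33 to 1.95, limma adjusted p = 0.0691). The change passed without WT replicate 4 (adjusted p = 0.0395) or without Cebpg-/- replicate 4 (adjusted p = 0.0323). Col9a1, a fibril-associated chain of cartilage, read 2.94 to 3.18 in Cebpg-/- and 2.83 to 3.13 in WT with its brightest probe set. A second probe set of Col9a1 read 4.66, 1.84, 4.64 and 1.90 on Cebpg-/- replicates 1 to 4, against 1.67 to 2.14 in WT, so it was high on replicates 1 and 3 and at the WT level on the other arrays (change 1.39, adjusted p = 0.219 over all probe sets). The mean of 6 chondrocyte markers was 2.97, 2.44, 3.17 and 2.42 on the same Cebpg-/- arrays, against 2.38 to 2.53 in WT, with 3 of the 6 above 2.73 on average and none called. Of the 6, Sox9, which defines the lineage, gave 0.27, Comp 0.84, Cnmd 0.70, Hapln1 0.18, Matn1 0.10 and Acan, the aggregating proteoglycan of cartilage, -0.26. The part of such cells in the Col2a1 and Col9a1 values was not tested. Col10a1, a marker of cartilage that turns to bone, gave 0.29 and did not pass.

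The genes of the 3 main chains of type VI collagen fell together. These chains build the beaded filaments that anchor connective tissue cells to their surroundings. Col6a1 read 7.47, 8.38, 7.78 and 8.01 on Cebpg-/- replicates 1 to 4, against 8.63, 8.80, 8.73 and 8.65 on WT replicates 1 to 4, a fall of 1.73-fold (-0.79, interval -1.15 to -0.44, limma adjusted p = 0.0121). Col6a2 read 7.38, 8.21, 7.66 and 7.89 in Cebpg-/- and 8.62, 8.87, 8.95 and 8.66 in WT, a fall of 1.99-fold (-0.99, interval -1.34 to -0.64, adjusted p = 0.0042). The order of the Cebpg-/- arrays was the same in both genes, with replicate 1 lowest and replicate 2 highest. Col6a3 read 9.43, 9.75, 9.25 and 9.79 in Cebpg-/- and 10.23, 10.37, 10.37 and 10.30 in WT, a fall of 1.70-fold (-0.76, interval -1.02 to -0.51, adjusted p = 0.0034). None of the 3 genes had overlapping groups. Col6a4 and Col6a5, later additions to the family, lay under 2.73 on every array, at -0.06 and -0.05, and did not pass.

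The DNA upstream of 4 of these called genes is shown because Col1a2 and Col3a1 encode chains of the main fibrils of types I and III, while Col6a1 and Col6a2 are type VI genes next to each other in the genome that both fell. The sequences are the 250 bases before the annotated start of each gene, from RefSeq on build GRCm38.p6, written 5′ to 3′ on the strand of the gene. Capitals mark every match, on either strand, to the CCAAT box bound by NF-Y, to the TATAA box, to the Sp1 box GGGCGG, to TTNNGNAA, a loose form of the C/EBP site, or to TGATGNAA, a loose form of the composite C/EBP-ATF site.
Col1a2 (chr6:4505368-4505617, plus strand): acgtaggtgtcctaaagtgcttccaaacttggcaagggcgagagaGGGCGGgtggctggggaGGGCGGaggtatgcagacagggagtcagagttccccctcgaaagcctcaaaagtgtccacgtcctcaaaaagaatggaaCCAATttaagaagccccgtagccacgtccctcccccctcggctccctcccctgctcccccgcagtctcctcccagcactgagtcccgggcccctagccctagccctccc
Col3a1 (chr1:45311288-45311537, plus strand): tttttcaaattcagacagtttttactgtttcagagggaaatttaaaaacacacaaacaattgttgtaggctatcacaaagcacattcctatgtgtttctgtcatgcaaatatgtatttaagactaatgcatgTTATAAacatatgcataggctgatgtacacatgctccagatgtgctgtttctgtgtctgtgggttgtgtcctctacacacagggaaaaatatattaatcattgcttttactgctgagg
Col6a1 (chr10:76726045-76726294, minus strand): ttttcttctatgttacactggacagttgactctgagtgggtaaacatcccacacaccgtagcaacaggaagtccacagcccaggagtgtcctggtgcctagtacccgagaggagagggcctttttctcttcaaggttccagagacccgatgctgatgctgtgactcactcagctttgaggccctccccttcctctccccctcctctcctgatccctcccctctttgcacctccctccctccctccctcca
Col6a2 (chr10:76623631-76623880, minus strand): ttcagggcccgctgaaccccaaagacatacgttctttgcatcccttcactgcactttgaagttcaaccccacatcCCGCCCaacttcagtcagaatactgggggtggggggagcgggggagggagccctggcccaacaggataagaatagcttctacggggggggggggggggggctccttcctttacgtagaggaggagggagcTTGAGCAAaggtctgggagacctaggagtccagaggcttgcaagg

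The 4 windows had little in common. Col1a2 held a CCAAT that begins 109 bases before the start and 2 copies of GGGCGG, at 205 and 188 bases. Col3a1 held TATAA read on both strands, at overlapping positions 117 and 118 bases before the start, and Col6a1 held none of the 5 motifs. Col6a2 held GGGCGG on the opposite strand at 175 bases and TTGAGCAA, a match to the loose C/EBP form, at 45 bases. Windows were given for 33 of the 42 genes (36 windows). Among these, 36.1% held CCAAT, against 33.8% of all 32851 windows of the same length, 30.6% held TTNNGNAA against 36.8%, 58.3% held GGGCGG against 32.7%, and 19.4% held TATAA against 22.8%. TGATGNAA stood in 0 of 36 windows, against 3.45% of all windows. A match is a stretch of letters and not a site of binding.

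Basement membrane collagens all had changes below 0, from -0.33 to -0.12, with a median of -0.22, as over all 42 genes. Of 6 type IV genes 2 fell, both by small amounts, and none rose (by an unadjusted p under 0.05, 2 were lower and none higher). Col4a1 and Col4a2, the chains of the common type IV network, lie head to head, and their 300-base windows overlap by 78 bases. Col4a1 read 10.98, 10.56, 10.62 and 10.89 in Cebpg-/- and 10.88, 10.82, 10.98 and 11.26 in WT, a change of -0.22 (interval -0.49 to 0.05, limma adjusted p = 0.255). Col4a2 read 9.58, 9.26, 9.25 and 9.49 in Cebpg-/- and 9.50, 9.40, 9.59 and 9.97 in WT, a change of -0.22 (interval -0.50 to 0.06, adjusted p = 0.287). Both groups overlapped in both genes, and the intervals leave room for falls of up to about 0.50. Both intervals hold the -0.44 of Col1a2 and of Col12a1 and do not reach the -0.66 of Col11a1. Differences between these genes were not tested.

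Col4a5 and Col4a6, a second head-to-head pair that forms a network in kidney, smooth muscle and skin, were the chains that passed. Col4a5 read 7.53, 7.64, 7.64 and 7.71 in Cebpg-/- and 7.70 to 8.17 in WT (-0.33, interval -0.54 to -0.12, limma adjusted p = 0.0462), with WT replicate 4, the lowest, inside the Cebpg-/- range. Col4a6 read 2.10, 1.93, 2.06 and 2.07 in Cebpg-/- and 2.31, 2.25, 2.24 and 2.23 in WT (-0.22, interval -0.35 to -0.09, adjusted p = 0.0367). All of its values lay under 2.73, near the bottom of the scale, and a second Col4a6 probe set of like brightness gave 0.11 (adjusted p = 0.612 over all probe sets). When each array was left out in turn, Col4a5 and Col4a6 each passed in 1 of 8 fits, the one without WT replicate 4. Col4a3 and Col4a4 lay under 2.73 on all arrays, at -0.12 and -0.13, and did not pass.

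Fibril-associated collagens held few calls. Of 9 genes 2 fell and none rose (by an unadjusted p under 0.05, 3 were lower and none higher). The median change was near 0 (0.0029, and -0.098 to -0.0054 leaving out 1 array). Over the 5 genes left without dim probe sets it was -0.23. Col12a1, which coats type I fibrils in tendon and muscle, read 9.30, 9.46, 9.27 and 9.33 in Cebpg-/- and 9.78, 9.93, 9.71 and 9.68 in WT, without overlap (-0.44, interval -0.60 to -0.28, limma adjusted p = 0.00492). Col14a1, a related coat of fibrils in skin and tendon, read 3.54, 2.81, 3.11 and 3.05 in Cebpg-/- and 3.77, 4.16, 3.79 and 3.47 in WT (-0.67, interval -1.05 to -0.30, adjusted p = 0.0288). Cebpg-/- replicate 1 lay above WT replicate 4 in Col14a1, and 6 of the 8 fits that leave out 1 array lost its call (adjusted p = 0.0148 to 0.0745 over all alternatives). Col16a1, a fibril-associated chain found in skin and cartilage, read 7.01, 7.03, 6.89 and 7.06 in Cebpg-/- and 7.15, 7.14, 7.26 and 7.35 in WT. Its groups did not overlap, but the difference did not pass (-0.23, adjusted p = 0.0556). The other 6 were cartilage chains of type IX (Col9a1, Col9a2 and Col9a3) and Col19a1, Col20a1 and Col22a1, with changes between -0.13 and 0.10, none of which passed.

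The 11 network, transmembrane, multiplexin and remaining collagens gave no call (by an unadjusted p under 0.05, 4 were lower and 1 higher). Col8a2, a chain of the hexagonal type VIII lattice of vessel walls and the cornea, read 4.62, 6.07, 4.51 and 4.70 on Cebpg-/- replicates 1 to 4, against 6.09, 6.27, 6.06 and 5.22 on WT replicates 1 to 4. One array of each genotype stood apart, Cebpg-/- replicate 2 among the WT values and WT replicate 4 toward the Cebpg-/- values, and the difference did not pass (-0.94, interval -1.70 to -0.18, limma adjusted p = 0.102). Without WT replicate 4 or without Cebpg-/- replicate 2 it passed, with adjusted p = 0.0438 and 0.00538. Its partner chain Col8a1 read 9.60, 9.63, 9.54 and 9.67 in Cebpg-/- and 9.75, 9.71, 10.02 and 9.86 in WT, without overlap, and did not pass (-0.22, adjusted p = 0.0785). Col18a1, the basement membrane collagen whose cut end is endostatin, had a positive change of 0.30 that did not pass (interval 0.04 to 0.56, adjusted p = 0.121) except without WT replicate 4 (0.42, adjusted p = 0.0109) or with array weights. A second probe set of Col18a1 was higher in Cebpg-/- (5.26 ± 0.09) than in WT (4.88 ± 0.21; SD, n = 4 each) and passed over all probe sets (0.39, limma adjusted p = 0.0461). Col15a1, its relative, gave -0.33 and Col7a1, the anchoring fibril under the skin, -0.27, and neither passed. The 4 transmembrane collagens Col13a1, Col17a1, Col23a1 and Col25a1 lay between -0.26 and 0.06, and Col26a1 was at -0.02, with none called.

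The size of a fall depended on which probe set was read. For 13 genes 2 or more probe sets lay above 2.73, and in 13 of 13 they changed in the same direction. In 7 of them the dimmest of these probe sets moved more than the brightest. Col1a2 gave -0.44 with its brightest probe set, -0.82 with the next, and -1.45 with the third, which read 3.69 ± 0.41 in Cebpg-/- and 5.14 ± 0.07 in WT (SD, n = 4 each; limma adjusted p = 0.00141 over all probe sets). Col3a1 gave -0.97 and -1.55, and Col5a1 gave -0.55, -0.94 and -0.83. Col5a2, which did not pass by its brightest probe set, gave -0.46 with its dimmer one (8.88 ± 0.09 in Cebpg-/- and 9.34 ± 0.11 in WT, adjusted p = 0.00573 over all probe sets). The brightest probe sets of Col1a2, Col5a2 and Col3a1 read 11.2 or more on average, near the top of the scale, which ends at 13.05. In Col12a1 and Col4a5 the dimmer probe set moved less, at -0.28 and -0.14. Over all 82 collagen probe sets 23 were lower and 1 higher, where 2.78% and 4.82% of all probe sets were.

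**Figure D3:**
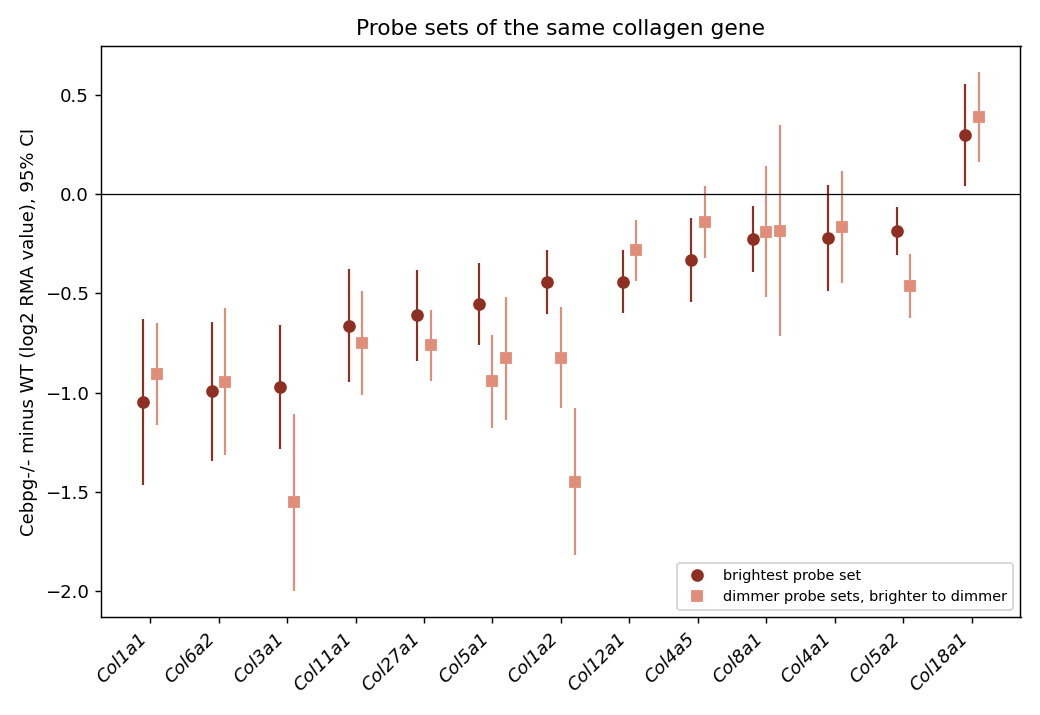
Change between Cebpg-/- and WT (y axis, log2 scale, 95% confidence interval) for the probe sets above 2.73 of the 13 collagen genes that have several. The dark circle is the brightest probe set and squares are the dimmer ones; for Col1a2 they run from -0.44 to -1.45.

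Genes that lie next to each other in the genome gave both like and unlike changes. Among protein-coding genes 7 pairs of collagen genes are direct neighbours. Col6a1 and Col6a2 both fell (-0.79 and -0.99), Col4a5 and Col4a6 both fell (-0.33 and -0.22), and Col4a1 and Col4a2 both gave -0.22 without passing. Col4a6, however, lay under 2.73, and its second probe set gave 0.11. Col3a1 and Col5a2 are neighbours too, at -0.97 and -0.18 by their brightest probe sets and at -1.55 and -0.46 by their dimmer ones.

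Genes that serve the making of collagen were counted in the same fit, where 3.99% of all genes fell and 8.62% rose. Folding and export held the most calls: of 11 measured genes 9 fell and none rose, and the median change was -0.28 (by an unadjusted p under 0.05, also 9 and none). Creb3l1, a membrane-bound transcription factor known in bone to drive type I collagen, read 5.26, 5.48, 4.85 and 5.59 in Cebpg-/- and 6.11, 5.98, 6.13 and 6.54 in WT (-0.89, interval -1.26 to -0.52, limma adjusted p = 0.00862). Sec24d and Sec23a form the coat of the vesicles that leave the endoplasmic reticulum. Sec24d read 8.10, 8.50, 8.12 and 8.43 in Cebpg-/- and 8.91, 8.82, 9.08 and 8.80 in WT (-0.61, adjusted p = 0.00588), and Sec23a gave -0.53 (adjusted p = 0.00384). Fkbp14, a prolyl isomerase that acts on collagen chains, gave -0.58 (adjusted p = 0.00586) and Mia3 (TANGO1, which loads procollagen into vesicles) -0.31 (adjusted p = 0.00763). The collagen chaperone Serpinh1 (HSP47), Fkbp9, Hspa5 and the collagen-binding Sparc fell by 0.28, 0.28, 0.22 and 0.21. In all 9 of them the Cebpg-/- values lay below all WT values. A call already makes this pattern likely, so it adds nothing to the calls. The 6.74% of all genes that showed it were not chosen by a call and are no measure for these 9. With the leukocyte marker mean as a covariate 0 of the 9 passed, and without replicate 1 of both genotypes 1 did.

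Other steps held fewer calls (over all genes 3.99% fell and 8.62% rose), and 1 call in a short list says little against these shares. Of 15 genes that modify chains 2 fell and none rose (by an unadjusted p under 0.05, 5 were lower and none higher): P3h1, a prolyl 3-hydroxylase, at -0.50 (limma adjusted p = 0.00865), and P4hb, the shared subunit of the prolyl 4-hydroxylases, at -0.32 (adjusted p = 0.0134). Of 10 genes of propeptide trimming and crosslinking 3 fell and none rose (4 lower and 1 higher by an unadjusted p under 0.05). They were Loxl1, a crosslinking enzyme, at -0.57, Pcolce, which speeds removal of the C-terminal propeptide, at -0.32, and Adamts3, an N-propeptidase whose values lay under 2.73, at -0.53. Lox itself, the main crosslinking enzyme, gave 0.03 and did not pass. Of 9 receptors and uptake genes 1 fell (Itga1, a collagen-binding integrin chain, at -0.36) and none rose (3 lower and 1 higher by an unadjusted p under 0.05). Of 15 laminins and other partners of type IV collagen 4 fell and none rose (4 lower and 1 higher by an unadjusted p under 0.05): Pxdn, which crosslinks type IV, at -0.34, Lama5 at -0.34, Hspg2 (perlecan) at -0.32 and Lamc1 at -0.32. Of 7 collagenases and other collagen-degrading proteases 1 rose and none fell. It was Mmp13, at 7.01, 5.52, 7.88 and 6.31 in Cebpg-/- and 1.89, 2.17, 2.53 and 2.18 in WT, and no fold is given because the WT values lie near the bottom of the scale. By an unadjusted p under 0.05, 1 of the 7 was higher and 1 lower.

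**Figure D4:**
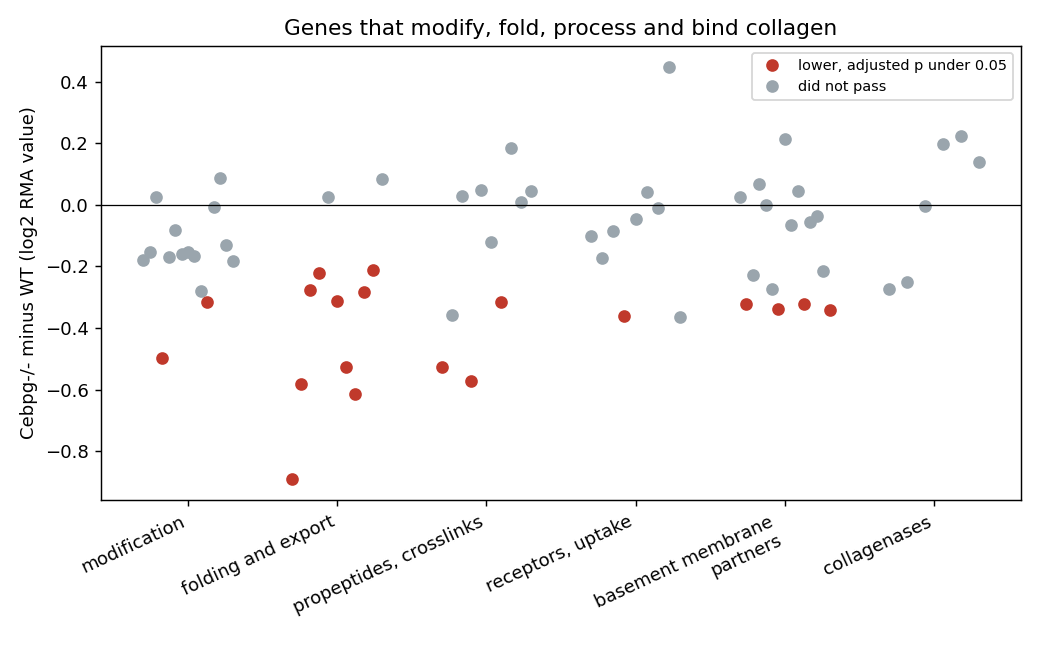
Change between Cebpg-/- and WT (y axis, log2 scale) for genes that modify, fold, export, trim, bind or degrade collagen, by list (x axis). Red points passed as lower, 9 of them in folding and export, and grey points did not pass. Mmp13 is left out because it lies far above the others.

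The leukocyte marker mean was higher in Cebpg-/- on average, with overlap, so the 13 called collagen genes were also fitted with the mean of these markers as a covariate. With it, 2 of the 13 passed (Col3a1 at -0.72, limma adjusted p = 0.0335, and Col11a1 at -0.84, adjusted p = 0.0236). The number of all called genes was 400 instead of 2295, and 129 instead of 726 were lower. All 13 changes stayed below 0, at 0.653 to 1.33 times their size without the covariate (median 0.855). The adjusted p of the other 11 ran from 0.0515 (Col6a3 and Col14a1) to 0.311 (Col4a5). Col6a1 kept the least of its change (-0.52 with the covariate, adjusted p = 0.147), and Col14a1 gained the most (-0.89). Without replicate 1 of both genotypes, the arrays with the highest and the lowest leukocyte mean, 6 of the 13 passed, all 13 changes were below 0 and their size was 0.843 to 1.22 times that with all arrays. In that fit 529 of all genes were called, 182 of them lower.

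**Figure D5:**
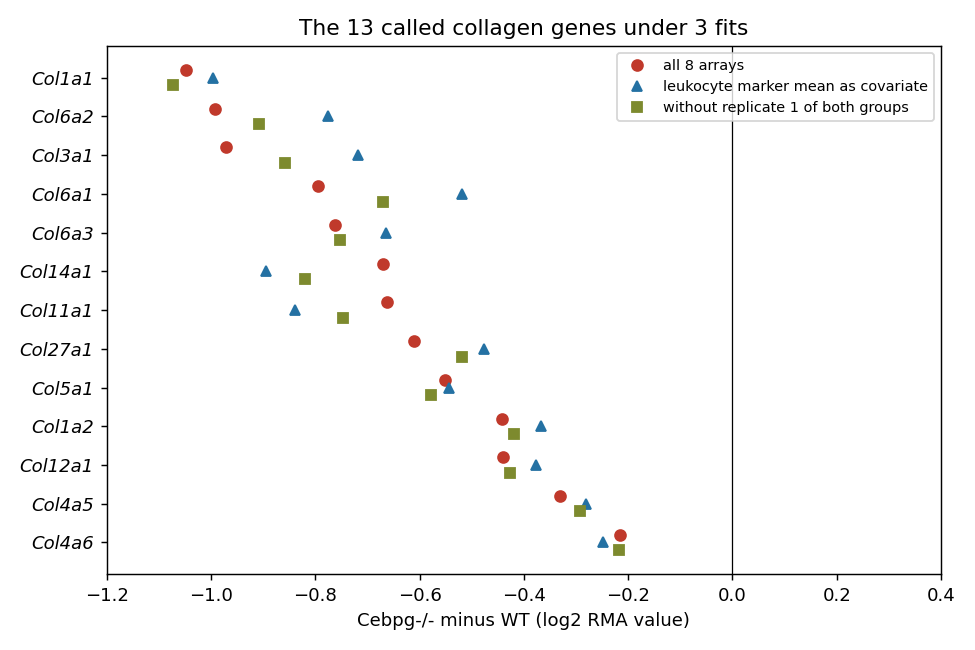
Change between Cebpg-/- and WT (x axis, log2 scale) of the 13 called collagen genes (y axis) with all 8 arrays (circles), with the leukocyte marker mean as a covariate (triangles) and without replicate 1 of both genotypes (squares). All points lie left of 0; Col6a1 moves most toward 0 with the covariate, to -0.52.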

How the data were processed

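The authors deposited log2 RMA expression values, 1 per probe set and array, per the submitters' processing notes; no source used here gives the version or settings. Per the labels' protocols, cRNA carrying biotin was prepared from 1 µg of total RNA. RMA usually equalises brightness between arrays, and changes in array values can be compressed at both ends of the scale. Of 45101 probe sets 64 controls were left out. The platform annotation names 1 gene for 34945, several for 932 and none for 9160; 34741 symbols were updated through RefSeq (GRCm38.p6).

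Genotypes were compared with limma 3.58.1 under R 4.3.3 (genotype as the only term) on 45037 probe sets, and p-values were adjusted by Benjamini-Hochberg over 18193 genes (threshold 0.05). Intervals are at 95%. On simulated data with 200 of 18193 genes changed, 77.0% of changes of 0.5 and 97.6% of changes of 1 were called, and 5.20% of calls were false. The simulated noise followed the variance model of the fit, with no effect shared by the genes of an array. The rates may thus differ in the real data. The collagen genes, their classes and the lists of related genes and markers were chosen with earlier results of these data known. All collagen genes could be named, and of related genes up to 4 called ones per list with the lowest p; Creb3l1, Serpinh1, Fkbp9, Hspa5, Sparc, Lox and single markers were added after their values were seen. Alternatives were other scalings, a filter on dim probe sets (above 2.73 on at least 4 arrays), averaged probe sets, single probe sets, updated symbols, an intensity trend, array weights, a block for the replicate number, the leukocyte mean as a covariate and leaving out arrays.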

Additional observations from a re-analysis of the deposited data

Results flagged for a closer look

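Of 84 groups of 4 values (42 collagen genes in 2 genotypes), 3 held a value far from the other 3, where chance gives about 1 in 20. Col8a2 on Cebpg-/- replicate 2 read 6.07, and the other Cebpg-/- arrays read 4.51 to 4.70. Col18a1 on WT replicate 4 read 5.59, and the other WT arrays read 5.10 to 5.13. Col23a1 on WT replicate 1 read 2.30, and the other WT arrays read 2.08 to 2.11, all of them near the bottom of the scale.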

How the results depend on the processing

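The 13 lower collagen genes became 12 with array medians subtracted, 13 with quantile normalization and 12 with each gene's probe sets averaged. Without dim probe sets 14 of the 26 collagen genes left were lower. The count was 15 with an intensity trend, 15 with array weights and 13 with updated symbols. Over all genes 726 were lower. The number was 786 of 11704 without dim probe sets, 662 with averaged probe sets, 833 with an intensity trend and 985 with array weights. Counted over collagen probe sets there were 23 lower and 1 higher. The number of lower collagen genes was 2 with the leukocyte covariate and 6 without replicate 1 of both genotypes. All called genes fell likewise to 400 and 529, against 2295, and the lower ones among them to 129 and 182, against 726. Leaving out 1 array gave 10 to 14 lower collagen genes and 0 to 2 higher ones. In all 8 such fits 10 of the 13 passed (not Col14a1, Col4a5 and Col4a6). Array weights gave 1 higher gene, Col18a1. The median change of -0.22 was -0.19 with array medians subtracted and -0.24 to -0.19 leaving out 1 array. Over the 26 collagen genes left without dim probe sets it was -0.39. The 19 lower and 1 higher genes of the related lists became 0 lower with the covariate, 1 lower without replicate 1 of both genotypes, and 12 to 17 lower and 1 to 3 higher leaving out 1 array. With the replicate number as a block, 11 collagen genes were lower (Col14a1, Col4a5 and Col4a6 lost, Col24a1 gained) and 15 genes of the related lists. Same-numbered arrays of the 2 genotypes deviated together with r = -0.27, 0.13, -0.01 and 0.03. Differently numbered arrays gave -0.25 to 0.33, so these values cannot decide whether the numbers pair the samples. No called gene reversed under these settings, but 1 dim probe set each of Col4a6 (0.11), Col12a1 (0.022) and Col14a1 (0.022) gave a positive change that did not pass. Dim genes such as Col4a6 carry little signal over background.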
